A study of Saccharomyces cerevisiae with 10 samples.

Results

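The 32 genes described here encode the nuclear-coded subunits of yeast respiratory complexes II, III and IV and of ATP synthase, in 5 strains of Saccharomyces cerevisiae fermenting grape juice. They were taken by systematic identifier from the 6600 genes of the deposited table and comprise 4 genes of complex II, 9 of complex III (cytochrome c1 included), 7 of complex IV and 12 of ATP synthase. The isoform genes COX5A, COX5B, CYC1 and CYC7 are not among them. All strains have the S288C laboratory background and differ at MED15, which encodes a subunit of the tail of Mediator, the complex that connects DNA-bound activators with RNA polymerase II. The deletion strain lacks MED15 (genotype med15 deletion), and the WY7, WY15 and WY23 strains and the LAB strain each carry an integrated MED15 allele of that name, LAB being given as wild type. Each strain was fermented in 2 separate cultures of 5 mL of supplemented white grape juice, and whole cells were collected once 35% of weight loss had been reached, at 48 h for the deletion and about 37 h for WY7, WY15, WY23 and LAB. MED15 genotype and time of harvest therefore cannot be told apart in any comparison with the deletion. The same holds for URA3, which had reads in the deletion libraries alone.

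The respiratory chain sits in the inner mitochondrial membrane. Succinate dehydrogenase (complex II) hands electrons from the citric acid cycle to coenzyme Q, the cytochrome bc1 complex (complex III) passes them on to cytochrome c, and cytochrome c oxidase (complex IV) gives them to oxygen. Complexes III and IV pump protons, and ATP synthase lets the protons back through its membrane part Fo to drive ATP production in its catalytic head F1. Yeast has no proton-pumping complex I and uses single-subunit NADH dehydrogenases in its place, and while it ferments sugar it holds the nuclear genes of the chain low through glucose repression. The HAP2/3/4/5 complex, which binds the sequence CCAAT, is the known activator of many of them in yeast, and HAP1 activates others when haem, and so oxygen, is present.

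The libraries held 22.7 to 29.3 M reads assigned to genes, and a member of the group had 1516 to 48430 reads in a library, so that counting error is small beside the spread between cultures. MED15 itself had 12.1 and 11.9 normalized counts in the deletion libraries and 8238 to 10958 normalized counts in the 8 MED15 libraries (median 8841). URA3 had 3213 and 3214 normalized counts in the deletion libraries and 0 in the 8 MED15 libraries, a further difference between these strains. The subunits coded in mitochondrial DNA (COX1, COX2, COX3, COB, ATP6, ATP8 and OLI1) are among 28 mitochondrial genes listed at 0 in every library, and were not measured here. Normalized counts summed to 20.8 and 20.9 M in the deletion and to 25.9 to 29.5 M in the 8 MED15 libraries. Scaling every library to the same sum moved the median log2 change of all genes tested, deletion minus LAB, by 0.36. Within strains, the cultures of LAB and of WY15 differed most in 18 low-oxygen genes. LAB replicate 1 was lower in 15 of them (51.4% of all genes tested), with a median log2 difference, replicate 1 minus 2, of -1.19. WY15 replicate 1 was higher in 17 (49.5% of all genes), with a median of 1.48. WY7 replicate 1 was also lower in 15 (50.9% of all genes), by a smaller median of -0.30. Meiosis and spore genes, which mark sporulating cells, were higher in the deletion: 16 of 20 rose against LAB (18.9% of all genes tested). The 20 together summed to 15956 and 16232 normalized counts in the deletion libraries and 5895 to 7406 in the 8 MED15 libraries. None of the 20 was at 0 in any library, and their part in the results below was not tested. In whole-culture RNA, a different mix of cells and a different amount of RNA per cell cannot be told apart.

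Respiratory chain and ATP synthase genes were higher in the med15 deletion than in LAB. The 32 genes together took 1.57 and 1.63% of the reads in the deletion libraries and 0.776 to 0.980% in the 8 MED15 libraries. Summed over the genes, this was 327587 and 339413 normalized counts in the deletion libraries, against 213220 to 256895 in the MED15 libraries. All 32 had a positive log2 change, deletion minus LAB, from 0.09 to 0.91 with a median of 0.48, while the median over all 6065 genes tested was 0.00. In limma, 21 rose and 0 fell at an adjusted p under 0.05, against a background of 18.9% of all genes called higher and 36.6% called in either direction. Over the 6065 genes 1147 were called higher and 1072 lower, the background for every count against LAB below. The count was 11 without LAB replicate 2 and 12 without either deletion library. With all 32 changes positive a lower call could not arise in limma, and edgeR and DESeq2, run on the same reads, also gave 0.

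**Figure D1:**
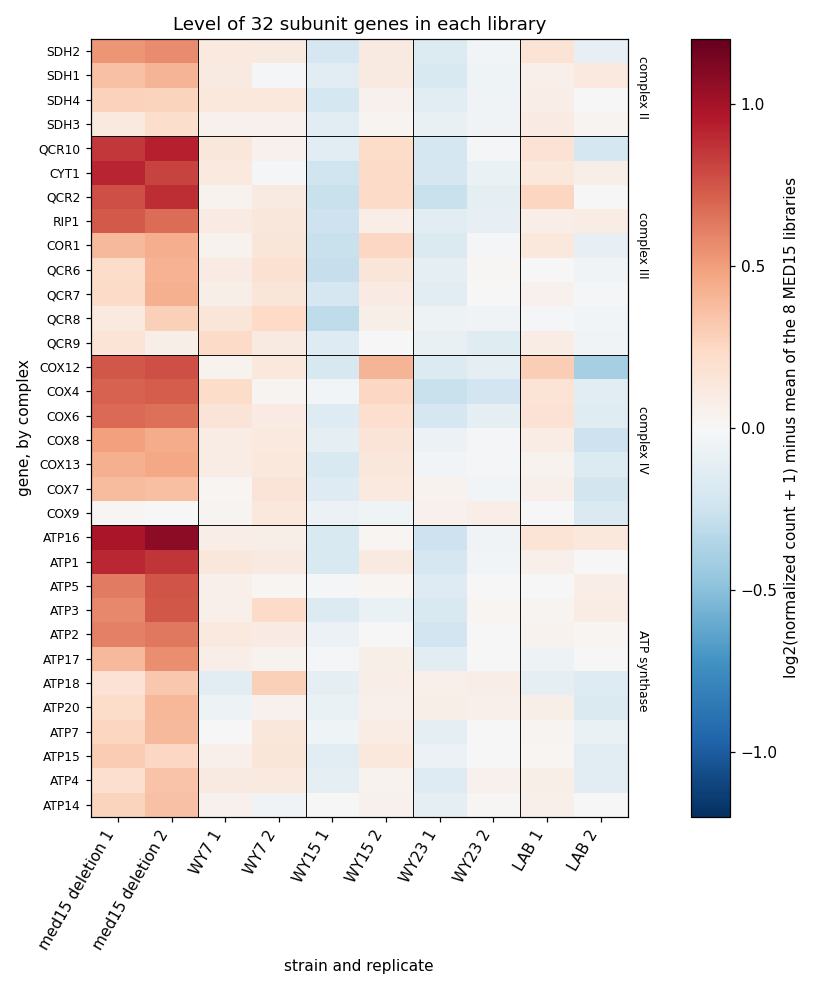
Level of each of the 32 subunit genes (rows, by complex) in each of the 10 libraries (columns), as log2(normalized count + 1) minus the mean of that gene over the 8 MED15 libraries, red above and blue below. The 2 deletion columns at the left are above that mean in 32 and 31 genes, and the WY15 replicate 1 column is below it in all 32.

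Both deletion libraries lay above both LAB libraries in 31 of 32 genes (35.6% of all genes tested) and above all 8 MED15 libraries in 28 of 32 (26.6% of all genes tested). The 4 genes whose libraries overlapped were QCR8, QCR9, COX9 and ATP18. Against the mean of LAB, WY7, WY15 and WY23 the deletion was higher in 27 genes (background 25.6% higher, 49.9% either direction), with a median log2 change of 0.43 and a range of 0.00 to 1.02. Against single alleles, 15 genes rose against WY7 (background 22.1% higher, 42.7% either direction; median 0.33), 20 against WY15 (18.7% and 36.1%; median 0.43) and 22 against WY23 (21.8% and 41.3%; median 0.50). Without deletion replicate 2 the counts were 14 against the mean of the MED15 strains, 7 against WY7, 11 against WY15 and 14 against WY23. Without WY7 replicate 2 the count against WY7 was 8, without WY15 replicate 1 or deletion replicate 1 that against WY15 was 13, and without WY23 replicate 1 that against WY23 was 12. These comparisons share the deletion libraries. None of the 32 was called lower in any of them, and the log2 change was below 0 only for QCR9 and COX9 against WY7 and for COX9 against WY23.

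Of the 21 calls against LAB, 11 were made in every one of 22 alternative settings: CYT1, QCR10, RIP1, COX4, COX6, ATP1, ATP2, ATP3, ATP5, ATP16 and ATP17. The other 10 (SDH2, QCR2, COX7, COX8, COX12, COX13, ATP7, ATP14, ATP15 and ATP20) were all lost when LAB replicate 2 was left out, with adjusted p of 0.0642 to 0.192 in limma. Without LAB replicate 1 and WY15 replicate 2, the libraries low in low-oxygen genes, 23 were called. Scaling to equal sums or quantile normalization called all 32, with a median log2 change of 0.84 under equal sums and 0.74 under quantile normalization. With the deposited scaling the median of the 32 exceeded that of all genes by 0.47. Equal sums shifts all genes of a library alike and so cannot move this excess. Under quantile normalization it was 0.74. Against the mean of the 4 MED15 strains 13 genes were called in every one of 21 alternatives.

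Upstream sequence of the gene with the largest change in each of complexes II, III and IV and ATP synthase is shown with that of QCR9, the gene nearest to no change against LAB, because the HAP complex named above acts through CCAAT. Each run is the strand of the gene from 250 to 101 bases before the start codon in R64: SDH2 chrXII:54032-54181 (minus strand), QCR10 chrVIII:107576-107725 (plus), COX12 chrXII:225273-225422 (minus), ATP16 chrIV:442779-442928 (plus) and QCR9 chrVII:859577-859726 (minus). Capitals mark CCAAT on either strand, written ATTGG where it lies on the other strand, and in COX12 the longer match to TNATTGGT, which contains it.
SDH2 promoter: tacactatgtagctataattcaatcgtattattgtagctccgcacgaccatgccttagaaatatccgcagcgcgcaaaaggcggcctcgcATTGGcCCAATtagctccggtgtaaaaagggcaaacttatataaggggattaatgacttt
QCR10 promoter: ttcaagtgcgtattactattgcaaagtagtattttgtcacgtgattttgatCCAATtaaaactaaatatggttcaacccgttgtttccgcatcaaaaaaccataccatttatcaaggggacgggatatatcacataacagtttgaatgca
COX12 promoter: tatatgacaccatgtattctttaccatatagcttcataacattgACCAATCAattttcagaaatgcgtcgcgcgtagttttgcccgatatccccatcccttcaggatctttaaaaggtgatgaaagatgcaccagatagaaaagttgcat
ATP16 promoter: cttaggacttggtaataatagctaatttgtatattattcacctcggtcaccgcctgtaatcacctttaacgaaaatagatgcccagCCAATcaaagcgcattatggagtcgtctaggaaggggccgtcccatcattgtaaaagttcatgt
QCR9 promoter: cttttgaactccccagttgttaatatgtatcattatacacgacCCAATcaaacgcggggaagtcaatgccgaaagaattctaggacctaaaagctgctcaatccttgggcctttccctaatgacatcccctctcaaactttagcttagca

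The 5 runs each held CCAAT, beginning 160 and 154 bases before the start codon in SDH2, 199 in QCR10, 205 in COX12, 164 in ATP16 and 207 in QCR9. In windows from 250 bases before to 50 bases after the start, CCAAT on either strand occurred in 28 of the 32 genes (87.5%) and in 43.8% of 5897 such windows of all genes. The longer pattern TNATTGGT, read on both strands and including CCAAT on the opposite strand, occurred in 12 of 32 (37.5%), against 5.80% of all windows. A form of the HAP1 site (CGG, any 3 bases, TA, any 1 base, CGG, on both strands) occurred in 1 of 32 (QCR6), against 0.136% of all windows. The 28 genes with CCAAT had 18 calls and a median log2 change of 0.42, and the 4 without it in this window (CYT1, COR1, COX4 and ATP1) had 3 calls and a median of 0.73. These matches describe letters in the windows and not bound sites.

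In complex II, 1 of 4 genes rose against LAB (18.9% of all genes tested), and the median log2 change was 0.26. SDH2 (YLL041C, chrXII:53131-53931), the iron-sulfur subunit that carries electrons from the flavin to coenzyme Q, had 16202 and 16668 normalized counts in the deletion libraries, 12146 and 12093 for WY7, 9785 and 12117 for WY15, 10032 and 10946 for WY23, and 12538 and 10502 for LAB. Both deletion libraries were above all others, and the LAB pair spanned most of the range of the MED15 libraries. Its log2 change against LAB was 0.52 (SE 0.13, limma adjusted p = 0.0181), and relative to the 4 MED15 strains averaged 0.55 (SE 0.11, limma adjusted p = 0.00332). SDH3 (YKL141W, chrXI:179667-180263), a membrane anchor of the complex that also serves in a mitochondrial protein import machinery, changed least. It had 7593 and 8075 normalized counts in the deletion libraries, 7235 and 7227 for WY7, 6416 and 7139 for WY15, 6581 and 6774 for WY23, and 7486 and 7131 for LAB. The deletion libraries were above all others, the lower one close to LAB replicate 1, and the log2 change of 0.10 (SE 0.09, limma adjusted p = 0.418) did not pass. The catalytic flavoprotein gene SDH1 had 10499 and 10872 normalized counts in the deletion libraries, against 7228 to 8923 normalized counts in the 8 MED15 libraries (median 8322). The other anchor gene, SDH4, had 13383 and 13373 in the deletion libraries, against 9575 to 12079 normalized counts in the 8 MED15 libraries (median 11324). Neither passed against LAB (log2 changes 0.29 and 0.23), and both passed against the mean of the MED15 strains, SDH1 with 0.38 (SE 0.09, limma adjusted p = 0.00762) and SDH4 with 0.27 (SE 0.09, limma adjusted p = 0.0315).

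In complex III, 4 of 9 genes rose against LAB (18.9% of all genes tested), with a median log2 change of 0.40 and a range of 0.09 to 0.91. QCR10 (YHR001W-A, chrVIII:107826-108122), a small subunit at the edge of the complex, had 7529 and 7979.9 normalized counts in the deletion libraries, 4586 and 4328 for WY7, 3831 and 4852 for WY15, 3604 and 4104 for WY23, and 4708 and 3615 for LAB. The deletion libraries lay well clear of the highest MED15 library, WY15 replicate 2. Its log2 change against LAB was 0.91 (SE 0.16, limma adjusted p = 0.00303), a fold of 1.86. QCR9 (YGR183C, chrVII:859063-859476), another small subunit of the same complex, had 8193 and 7697 normalized counts in the deletion libraries, 8601 and 7879 for WY7, 6601 and 7318 for WY15, 6912 and 6619 for WY23, and 7817 and 7128 for LAB. The lower deletion library lay within the LAB pair and the higher one within the WY7 pair, and the log2 change against LAB was 0.09 (SE 0.10, limma adjusted p = 0.521).

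The redox-active subunits of complex III coded in the nucleus both rose. CYT1 (YOR065W), cytochrome c1, had 12878 and 12026 normalized counts in the deletion libraries, against 5790.2 to 8017 normalized counts in the 8 MED15 libraries (median 6956). RIP1 (YEL024W), the Rieske iron-sulfur protein, had 8038 and 7647 in the deletion libraries, against 4063 to 5287 normalized counts in the 8 MED15 libraries (median 5085). Neither gene's groups overlapped, and the log2 changes against LAB were 0.76 (SE 0.15, limma adjusted p = 0.0055) for CYT1 and 0.62 (SE 0.11, limma adjusted p = 0.00371) for RIP1. The pair of core proteins on the matrix side gave different sizes of change. QCR2 (YPR191W) had 11886 and 12878 in the deletion libraries, against 5782 to 8351 normalized counts in the 8 MED15 libraries (median 7067), with a log2 change against LAB of 0.70 (SE 0.17, limma adjusted p = 0.013). COR1 (YBL045C, chrII:134143-135516), with the second largest gap between replicates of a strain after COX12, had 13475 and 13948 normalized counts in the deletion libraries, 10619 and 11386 for WY7, 8574 and 12204 for WY15, 9141 and 10112 for WY23, and 11244 and 9612 for LAB. WY15 replicate 1 was the lowest and WY15 replicate 2 the highest of the 8 MED15 libraries, and the log2 change against LAB of 0.40 (SE 0.17, limma adjusted p = 0.0975) did not pass. Of the remaining small subunits, QCR6 (the acidic hinge protein), QCR7 and QCR8 had log2 changes of 0.34, 0.31 and 0.23, and none of the 3 passed against LAB. Against the mean of the MED15 strains, COR1 (0.41, limma adjusted p = 0.0316), QCR7 (0.33, limma adjusted p = 0.0252) and QCR6 (0.32, limma adjusted p = 0.0498) passed. QCR8 (0.20, limma adjusted p = 0.145) did not, and the QCR6 call was made in 10 of 21 alternatives.

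In complex IV, 6 of 7 genes rose (18.9% of all genes tested), with a median log2 change against LAB of 0.55. These are the small nuclear subunits that surround the mitochondrially coded catalytic core. COX12 (YLR038C, chrXII:224921-225172), on the intermembrane-space side, had 8439 and 8576 normalized counts in the deletion libraries, 5172 and 5469.9 for WY7, 4405 and 6680.1 for WY15, 4471 and 4671 for WY23, and 6152 and 3803 for LAB. Both deletion libraries were above the rest, while the LAB pair and the WY15 pair differed more between replicates than any other gene of the group, by log2 0.69 and 0.60. Its log2 change against LAB was 0.81 (SE 0.24, limma adjusted p = 0.0311), and 0.47 without LAB replicate 2 (adjusted p = 0.157). COX9 (YDL067C, chrIV:334217-334396), a small transmembrane subunit, had 10338 and 10199 normalized counts in the deletion libraries, 10509 and 11198 for WY7, 9768 and 9901 for WY15, 10616 and 10846 for WY23, and 10193 and 9054 for LAB. The deletion libraries lay in the middle of the MED15 libraries, and the log2 change was 0.10 (SE 0.10, limma adjusted p = 0.462) against LAB and 0.00 (SE 0.08, limma adjusted p = 0.97) against the mean of the MED15 strains.

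The other 5 genes of complex IV were closer to one another. COX4 (YGL187C) had 7426 and 7521 normalized counts in the deletion libraries, against 3758 to 5404 normalized counts in the 8 MED15 libraries (median 4530.5), and a log2 change against LAB of 0.71 (SE 0.14, limma adjusted p = 0.00511). COX6 (YHR051W) had 4461 and 4419 in the deletion libraries, against 2423 to 3213 normalized counts in the 8 MED15 libraries (median 2781), and a log2 change of 0.66 (SE 0.14, limma adjusted p = 0.00809). In both genes the lowest deletion library exceeded the highest MED15 library. COX8, COX13 and COX7 rose by log2 0.55, 0.51 and 0.45, with adjusted p of 0.0120, 0.0167 and 0.0269. LAB replicate 2 was the lowest of the 8 MED15 libraries for COX7, COX8, COX9 and COX12, and the median of the 7 genes in that library was -0.18 relative to the mean of the MED15 libraries on the log2 scale.

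In ATP synthase, 10 of 12 genes rose against LAB (18.9% of all genes tested), with a median log2 change of 0.44. All 5 genes of the F1 head rose, with a median of 0.60. ATP16 (YDL004W, chrIV:443029-443511), the delta subunit of the central stalk, had 5770.4 and 6177 normalized counts in the deletion libraries, 3103 and 3088 for WY7, 2583 and 2992 for WY15, 2465 and 2854 for WY23, and 3282 and 3213 for LAB. The deletion pair was far above the rest, and the log2 change against LAB was 0.88 (SE 0.11, limma adjusted p = 0.00065), a fold of 1.84. ATP15 (YPL271W, chrXVI:30079-30267), the epsilon subunit of the same stalk, had 7598 and 7273 normalized counts in the deletion libraries, 6420.1 and 6765 for WY7, 5596 and 6683 for WY15, 5852 and 6103 for WY23, and 6219 and 5571 for LAB. Its groups did not overlap, yet the gap from the lower deletion library to WY7 replicate 2 was small, and the log2 change against LAB was 0.34 (SE 0.11, limma adjusted p = 0.0441).

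The catalytic hexamer of F1 is built from alpha and beta subunits. ATP1 (YBL099W), the alpha subunit, had 23770.1 and 23057 normalized counts in the deletion libraries, against 11022 to 13993 normalized counts in the 8 MED15 libraries (median 13004). ATP2 (YJR121W), the beta subunit, had 37629 and 38562 in the deletion libraries, against 21197 to 26976 normalized counts in the 8 MED15 libraries (median 25049). ATP3 (YBR039W), the gamma subunit that turns inside the hexamer, had 9023 and 10165 in the deletion libraries, against 5331 to 7122 normalized counts in the 8 MED15 libraries (median 6172). None of the 3 overlapped between the deletion and the MED15 libraries. Their log2 changes against LAB were 0.85 (SE 0.12, limma adjusted p = 0.00137) for ATP1, 0.59 (SE 0.12, limma adjusted p = 0.00658) for ATP2 and 0.60 (SE 0.11, limma adjusted p = 0.00452) for ATP3.

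In the stator stalk, which holds the head still against the rotor, 3 of 4 genes rose and the median log2 change against LAB was 0.32. ATP5 (YDR298C, chrIV:1058176-1058814), the OSCP subunit on top of the head, had 6832 and 7508 normalized counts in the deletion libraries, 4630.4 and 4529.5 for WY7, 4363 and 4509 for WY15, 3989 and 4424 for WY23, and 4446 and 4690.1 for LAB. The deletion pair stood clear of 8 libraries that were close together, with a log2 change of 0.65 (SE 0.09, limma adjusted p = 0.00129). ATP14 (YLR295C, chrXII:721999-722373), subunit h, had 3376 and 3571 normalized counts in the deletion libraries, 2902 and 2730.5 for WY7, 2801 and 2914 for WY15, 2584 and 2825 for WY23, and 2919.7 and 2794 for LAB. It had the smallest change of the 12 genes, 0.28 (SE 0.09, limma adjusted p = 0.0336), with no overlap between the deletion and the MED15 libraries. ATP7 (subunit d) rose by log2 0.35 (adjusted p = 0.0369), and ATP4 (subunit b) was at 0.30 (SE 0.12, limma adjusted p = 0.0834). Against the mean of the MED15 strains ATP4 passed, at 0.27 (limma adjusted p = 0.0419), a call made in 12 of 21 alternatives.

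Among the accessory subunits of Fo, 2 of 3 genes rose, with a median log2 change against LAB of 0.38. ATP17 (YDR377W, chrIV:1228611-1228916), subunit f, had 6816 and 7652 normalized counts in the deletion libraries, 5516 and 5365 for WY7, 5144 and 5482 for WY15, 4767 and 5226 for WY23, and 4996 and 5233 for LAB. The groups did not overlap, and the log2 change was 0.50 (SE 0.10, limma adjusted p = 0.00495). ATP20 (YPR020W, chrXVI:599870-600217), subunit g, which takes part in joining ATP synthase into dimers, had 2318 and 2619.6 normalized counts in the deletion libraries, 1905 and 2064 for WY7, 1883 and 2078 for WY15, 2099.6 and 2086 for WY23, and 2091 and 1767 for LAB. Here too the groups did not overlap, with a log2 change of 0.36 (SE 0.11, limma adjusted p = 0.0378). ATP18, subunit i/j, was at 0.38 (SE 0.14, limma adjusted p = 0.0673), with WY7 replicate 2 between its deletion libraries.

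**Figure D2:**
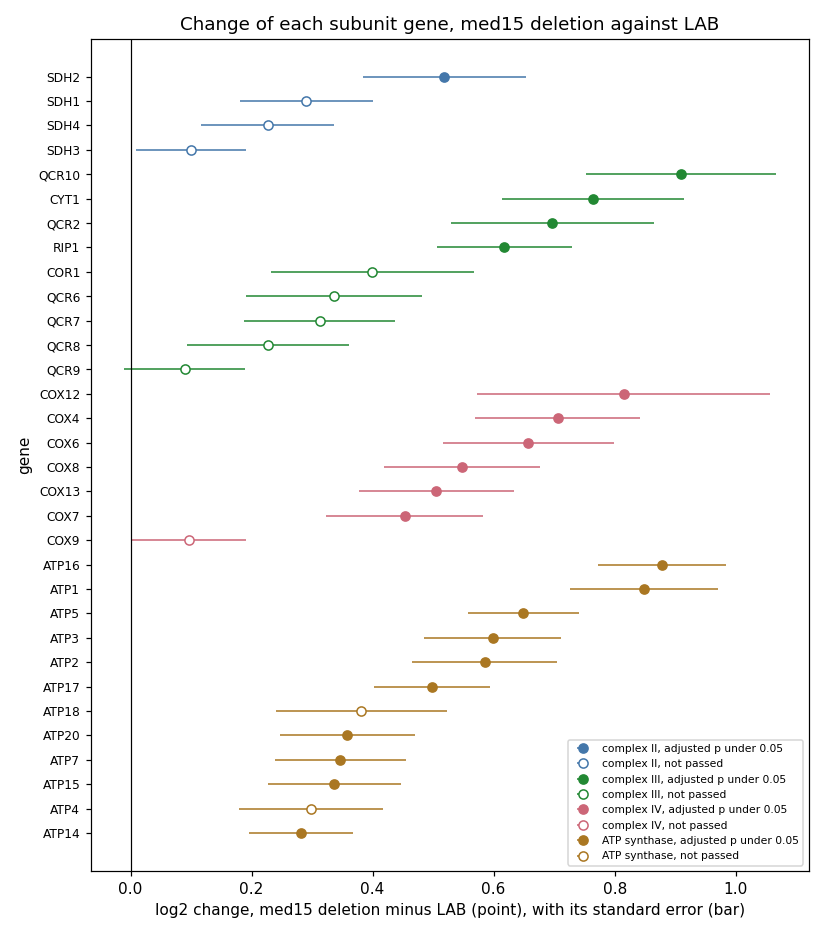
Log2 change of each of the 32 subunit genes, med15 deletion minus LAB (points, coloured by complex, filled where the adjusted p was under 0.05), with the standard error of the limma fit as bars. Every point lies right of 0, from QCR9 at 0.09 to QCR10 at 0.91, and complexes III and IV each hold both large changes and changes near 0.

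Levels of different genes were compared per kilobase of coding length. In this unit the 32 genes spanned 5557 (SDH1) to 57046 (COX9) normalized counts per kb in the deletion, a 10.3-fold range, and 4543 (SDH1) to 53465 (COX9) in LAB, an 11.8-fold range. The median gene was at 17650 per kb in the deletion and 14113 per kb in LAB. COX9 ranked first and SDH1 last in all 5 strains. QCR10 ranked 8th per kb in the deletion and 12th in LAB, and ATP16 ranked 23rd in the deletion and 29th in LAB. COX9, QCR9, COX7, QCR8, ATP15 and COX13, the 6 with the highest level per kb in LAB, had log2 changes of 0.09 to 0.51, and 3 of them rose, against 18 of the other 26. The LAB level enters both this ranking and the change, so the count cannot show a relation between them. Across the 32 genes the log2 change, deletion minus LAB, had a Spearman correlation of -0.42 with the level per kb in the 6 WY libraries, which enter neither side of the change. The same correlation was -0.46 over 5705 genes tested with a coding length. The genes share libraries and scaling, so these correlations are descriptions. Within complexes it was -0.80 over 9 genes of complex III, -0.75 over 7 of complex IV, -0.35 over 12 of ATP synthase and 0.00 over 4 of complex II. With the level not divided by length, the correlation was -0.32 over the 32 genes and -0.42 over the 5705.

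**Figure D3:**
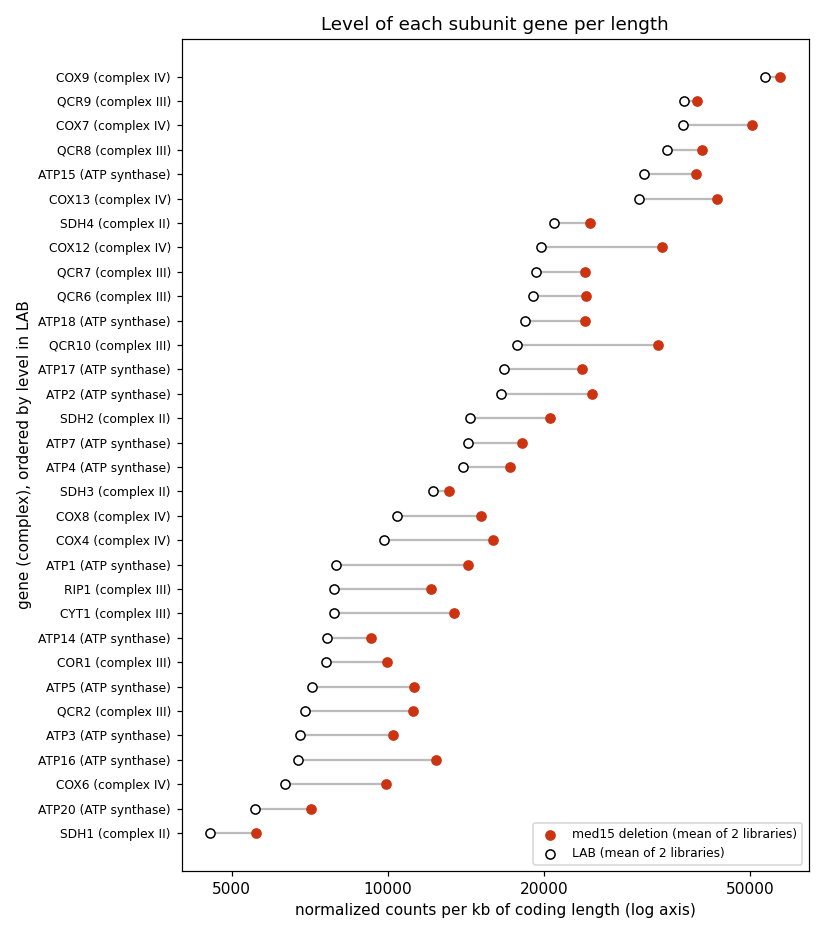
Mean normalized counts per kb of coding length (log axis) for each of the 32 subunit genes in the med15 deletion (red) and in LAB (open circles), 2 libraries each, ordered by the level in LAB. The red point is right of the open one in every gene, with the shortest gaps at COX9, QCR9 and SDH3.

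The WY alleles were compared with LAB because the strains were made to compare MED15 alleles. No member was called in WY7, WY15 or WY23 against LAB, nor in the test of any difference among the 4 alleles, with limma, edgeR or DESeq2. Limma and edgeR called 0.0% of 6065 genes in each of these comparisons. DESeq2 gives no adjusted p to some genes, and its shares are of those that had one: 0.135% of 5947 genes in WY7, 0.179% of 3360 in WY15, 3.72% of 1479 in WY23 and 2.64% of 5947 among the 4 alleles. In WY23 only 26 of the 32 had a DESeq2 adjusted p. At an unadjusted p under 0.05 limma gave 0 members in WY7, 0 in WY15, 1 in WY23 and 0 in the joint test, against 4.7%, 5.77%, 9.23% and 8.1% of all genes. The median log2 change against LAB was 0.09 in WY7, -0.03 in WY15 and -0.11 in WY23. Changes ranged from -0.07 (ATP16) to 0.21 (QCR8) in WY7, from -0.22 (ATP16) to 0.17 (COX12) in WY15, and from -0.32 (QCR2) to 0.20 (ATP18) in WY23. At the median SE of 0.12, the 95% interval of a gene reached 0.28 to either side of its log2 change. The outermost limits were -0.44 (QCR2) and 0.69 (COX12) in WY7, -0.54 (QCR2) and 0.72 (COX12) in WY15, and -0.70 (QCR2) and 0.53 (ATP18) in WY23. The 7 genes of complex IV were all above LAB in WY7 and in WY15, by a median of 0.17 and 0.06, and none passed. Of all 6065 genes tested, 3152 were above LAB in WY7 and 3131 in WY15. The LAB cultures differed in these 7 genes, with a median relative to the mean of the MED15 libraries of 0.09 in replicate 1 and -0.18 in replicate 2.

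Between the cultures of WY15, of WY23 and of LAB most of the genes differed in 1 direction. In WY15 all 32 genes were lower in replicate 1, the median difference from replicate 2 being log2 -0.26, where 50.4% of all genes tested were lower in replicate 1. In WY23, 29 of 32 were lower in replicate 1 (median -0.12, 51.3% of all genes), and in LAB 27 of 32 were higher in replicate 1 (median 0.09, 48.5% of all genes). In the deletion 22 of 32 were lower in replicate 1 (median -0.05, 49.0% of all genes), and in WY7 18 of 32 (median -0.02, 50.9% of all genes). The lowest value among the 8 MED15 libraries fell in WY23 replicate 1 for 13 genes, in WY15 replicate 1 for 12 and in LAB replicate 2 for 7. Relative to the mean of the MED15 libraries, the median member was at log2 0.39 and 0.44 in the deletion, 0.08 and 0.11 for WY7, -0.15 and 0.09 for WY15, -0.14 and -0.03 for WY23, and 0.06 and -0.04 for LAB.

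In WY15 and LAB the low-oxygen genes differed between cultures the opposite way to the subunit genes. This list holds 18 genes for cell wall mannoproteins, sterol and haem synthesis and low-oxygen isoforms, COX5B and CYC7 among them, that yeast makes when oxygen is short. Its median relative to the mean of the MED15 libraries was -0.36 and -0.36 in the deletion, -0.19 and 0.12 for WY7, 0.47 and -0.87 for WY15, 0.33 and 0.19 for WY23, and -0.63 and 0.46 for LAB. The opposite direction was not seen in every strain. In WY7 the median difference, replicate 1 minus 2, was -0.02 for the subunit genes and -0.30 for the low-oxygen genes. In the deletion it was -0.05 and -0.07, and in WY23 it was -0.12 and 0.07. The deletion libraries lay within the range of the others in the low-oxygen genes and outside it in the members. No source used here gives oxygen levels, and the part of these culture differences in the results was not tested. Against LAB, 2 of the 18 low-oxygen genes rose and 2 fell in the deletion, where 1147 rose and 1072 fell of all 6065 genes tested. Their summed level was 120818 and 139714 normalized counts in the deletion libraries and 117320 (WY15 replicate 2) to 319876 (WY7 replicate 2) in the 8 MED15 libraries.

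**Figure D4:**
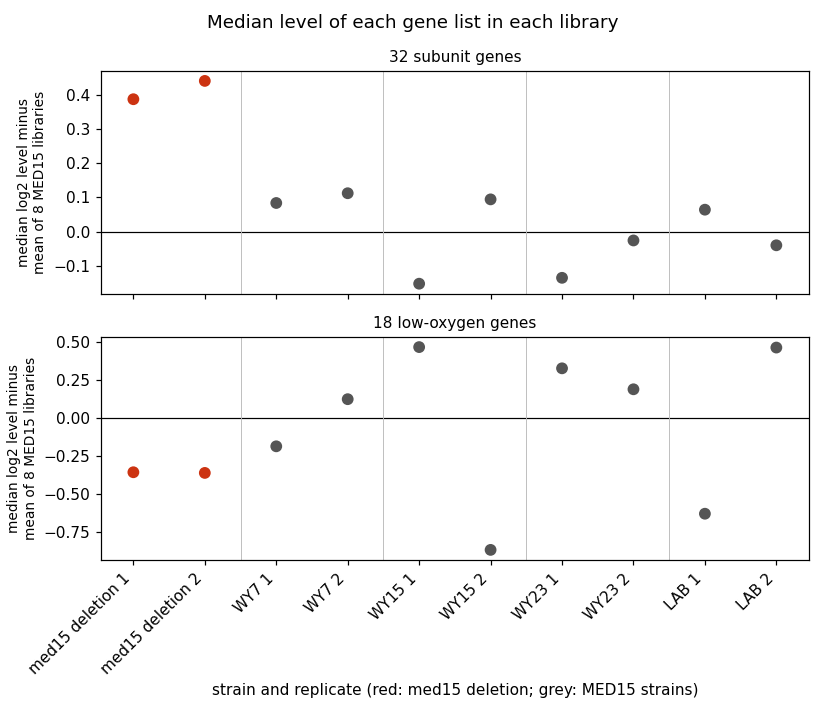
Median over the 32 subunit genes (upper panel) and over 18 low-oxygen genes (lower panel) of the log2 level in each library minus the mean of the 8 MED15 libraries, med15 deletion in red and MED15 strains in grey. The subunit median is 0.39 and 0.44 in the deletion and at most 0.11 elsewhere. In WY15, WY23 and LAB the library with the lower subunit median is the one with the higher low-oxygen median. In WY7 replicate 1 is the lower library in both panels, and the low-oxygen medians of the deletion libraries are nearly equal.

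The isoform genes that are not among the 32 changed in different directions. CYC1, the main cytochrome c of respiring yeast, had 734 and 465 normalized counts in the deletion libraries, 141 and 70.2 for WY7, 81.3 and 165 for WY15, 70.7 and 77.2 for WY23, and 152 and 79.1 for LAB. Its level was low in all MED15 libraries, and the log2 change against LAB was 2.40 (SE 0.47, limma adjusted p = 0.00527). CYC7, the other cytochrome c, had 6913 and 7337 normalized counts in the deletion libraries and 9150.2 and 8105 in LAB, a log2 change of -0.27 (SE 0.14, limma adjusted p = 0.164). Of the alternative subunits V of complex IV, COX5A, used with oxygen, was at 0.51 (SE 0.13, limma adjusted p = 0.0183). COX5B, used at low oxygen, had 7048 and 8343 in the deletion libraries and 18242 and 16429 in LAB, a log2 change of -1.17 (SE 0.13, limma adjusted p = 0.00051). The COX5A call was lost without LAB replicate 2 and without either deletion library (adjusted p up to 0.104), and CYC7 turned to 0.09 under equal sums.

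Of the 5 genes of the HAP activators, 4 fell against LAB in the deletion, where 1072 of all 6065 genes tested fell. Under equal sums 2 of the 5 fell and 1 rose. HAP4, the activating subunit whose level is known to rise when yeast respires, had 5019 and 4504 normalized counts in the deletion libraries, 18576 and 14294 for WY7, 8609.5 and 7637 for WY15, 8265 and 8768 for WY23, and 11123 and 20429.8 for LAB. Both deletion libraries were below all MED15 libraries, and the log2 change against LAB was -1.66 (SE 0.26, limma adjusted p = 0.00192). The LAB pair was far apart, and the HAP4 change was -1.23 without LAB replicate 2 and -2.10 without LAB replicate 1. HAP3, a DNA-binding subunit, was at -0.77 (SE 0.12, limma adjusted p = 0.00193), and HAP2, its partner in DNA binding, at -0.51 (SE 0.14, limma adjusted p = 0.02). HAP1, known as a haem-dependent activator, had 6344 and 7399 in the deletion libraries and 10945 and 19718 in LAB, a pair far apart. Its log2 change was -1.10 (SE 0.34, limma adjusted p = 0.0364), and HAP1 activity in these strains was not measured. HAP5 was at -0.04, with 0.32 under equal sums and 0.02 without LAB replicate 1. HAP4 and HAP3 were called in all 22 alternatives. The HAP1 call was lost in 8 of them: equal sums, quantile normalization, the replicate block, and without LAB replicate 2 (log2 -0.68, adjusted p = 0.190) or either WY23 or deletion library. The HAP2 call was lost in 4: equal sums (-0.15, adjusted p = 0.431), and without LAB replicate 1 or either deletion library.

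Genes that feed or serve the chain gave calls in both directions, as did all genes tested against LAB (1147 higher and 1072 lower of 6065). The single-subunit NADH dehydrogenase genes had log2 changes against LAB of 0.16 (adjusted p = 0.523) for NDI1, which faces the matrix, -0.95 (adjusted p = 0.0972) for NDE1 and -0.76 (adjusted p = 0.131) for NDE2, the 2 that face outwards. LAB replicate 2 and WY7 replicate 1 held the highest NDE1 levels, and the NDE1 change was -0.51 without LAB replicate 2 (adjusted p = 0.413) and -1.38 without LAB replicate 1 (adjusted p = 0.0495). Of the 6 genes for these and other electron donors, 0 rose and 1 fell: DLD1, a lactate dehydrogenase, was at -0.45 (adjusted p = 0.0131), at -0.09 under equal sums (adjusted p = 0.520), and not called without LAB replicate 2 or deletion replicate 2. The direction of this list depended on the strain set against: its median was -0.60 against LAB and -0.52 against WY7 (0 rose and 1 fell), but 0.11 against WY15 (1 rose and 0 fell) and 0.25 against WY23 (2 rose and 0 fell). In coenzyme Q synthesis 1 of 11 genes rose and 2 fell, with COQ5 at 0.64 (adjusted p = 0.00292), CAT5 at -0.47 (adjusted p = 0.0459) and COQ10 at -0.29 (adjusted p = 0.0483). The CAT5 call was lost in 10 of 22 alternatives, among them without either library of LAB, WY7, WY23 or the deletion. The COQ10 call was lost in 14, among them edgeR and leaving out any 1 library other than deletion replicate 1, and under equal sums 5 of the 11 genes rose and 0 fell. In the tricarboxylic acid cycle apart from complex II, 2 of 14 rose and 2 fell, with FUM1, fumarase, at 0.66 (adjusted p = 0.00137), CIT3, a mitochondrial citrate synthase, at 1.16 (adjusted p = 0.00219) and LSC2, a subunit of succinyl-CoA ligase, at -0.70 (adjusted p = 0.0016). Under equal sums 6 of the 14 rose and 1 fell. Under quantile normalization 7 rose and 1 fell, with a median of 0.38. With the deposited scaling, the median of the 14 was -0.02 against LAB and 0.22 against WY15. Of 6 carriers and porins 4 rose and 0 fell, among them MIR1, the phosphate carrier, at 0.90 (adjusted p = 0.00062), and the ADP/ATP carriers AAC1 at 0.70 (adjusted p = 0.00045) and AAC3 at 2.19 (adjusted p = 0.00257), AAC3 being also on the low-oxygen list.

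Assembly factors were counted by complex, beside 1147 higher and 1072 lower calls against LAB over all 6065 genes tested. In the assembly of complex II 2 of 6 rose, in that of complex III 0 of 13 rose and 2 fell, in that of complex IV 2 of 33 rose and 5 fell, and in that of ATP synthase 0 of 14 rose and 5 fell. These directions depended on the scaling. Under equal sums 4 rose and 0 fell for complex II, and 3 rose and 0 fell for complex III. For complex IV 16 rose and 2 fell, and for ATP synthase 3 rose and 2 fell. COX20 and COX14, which help to make and mature Cox2 and Cox1, were at -0.81 (adjusted p = 0.00269) and -0.76 (adjusted p = 0.00113). INA17, which assists in assembling the peripheral stalk of ATP synthase, was at -0.82 (adjusted p = 0.00109), and NCA3, which takes part in expression of the mitochondrial ATP6 and ATP8 genes, at -2.34 (adjusted p = 0.00597). Neither of the 2 genes for haem attachment to cytochrome c passed. Of 6 genes of the retrograde response, the signalling of mitochondrial state to the nucleus, 0 rose and 3 fell, and under equal sums 2 rose and 0 fell. The 3 were MKS1 at -0.46 (adjusted p = 0.00356), RTG3 at -0.36 (adjusted p = 0.0369) and RTG2 at -0.31 (adjusted p = 0.0270). RTG3 was called in 10 and RTG2 in 13 of 22 alternatives. Mitochondrial ribosomal proteins were lower in 27 of 67 genes and higher in 1, with a median of -0.23. Scaling to equal sums adds 0.36 to the median of all genes. It gave 13 higher and 3 lower mitochondrial ribosomal genes, with a median of 0.13. The median of the list relative to all genes, which that shift cannot move, was -0.23, and -0.31 under quantile normalization. Relative to all genes, the assembly medians with the deposited scaling were 0.18 for complex II, -0.12 for complex III, -0.03 for complex IV and -0.21 for ATP synthase. That of the 32 subunit genes was 0.47. Under quantile normalization the assembly medians were 0.05, -0.16, -0.07 and -0.26 in the same order, and that of the 32 was 0.74.

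Other nuclear subunits and ATP synthase inhibitors, 6 genes beside the 32, gave 2 higher and 2 lower. ATP19, subunit k of ATP synthase, was at 0.51 (adjusted p = 0.0128), and INH1, which inhibits the enzyme, at 0.41 (adjusted p = 0.0162). STF2, known for stabilizing the inhibitor, was at -1.43 (adjusted p = 0.0003), and COX26, a small subunit of respiratory supercomplexes, at -1.19 (adjusted p = 0.018). The ATP19 call was lost without LAB replicate 2 and without deletion replicate 2, and the INH1 call without LAB replicate 1 and without either deletion library. The COX26 call was lost under equal sums, without LAB replicate 1 and without deletion replicate 2. Of 3 complex II paralogues 1 rose and 0 fell. It was SDH9, a paralogue of SDH1 with 77.0% identity over 1794 bases, which had 1107 and 1077 in the deletion libraries and 355 and 526 in LAB, a log2 change of 1.34 (SE 0.20, limma adjusted p = 0.0015).

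**Figure D5:**
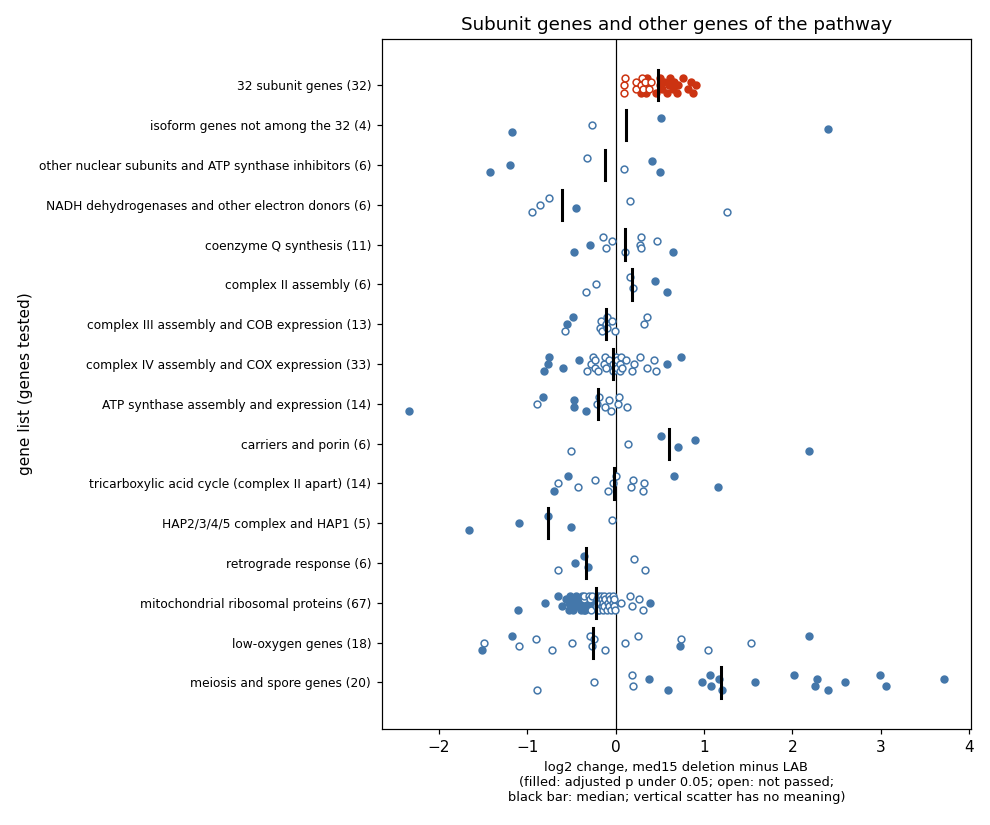
Log2 change of single genes, med15 deletion minus LAB, for the 32 subunit genes (red) and for lists of related genes (blue), filled where the adjusted p was under 0.05, with the median of each list as a black bar. The 32 subunit genes lie between 0.09 and 0.91, while the assembly, coenzyme Q and tricarboxylic acid cycle lists spread on both sides of 0 and 4 of the 5 HAP genes are called below it.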

How the data were processed

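Per the labels, whole-cell RNA was extracted with hot acid phenol and sequenced as stranded, poly(A)-selected libraries. Per the submitters' processing notes, reads were handled with Trim Galore, Bowtie2, featureCounts and DESeq2 on sacCer3 and R64. The strand setting of the counting is not given in the sources used here. The authors deposited 1 table of normalized signal, counts divided by a size factor per library. Its values were whole reads times 1 constant per library (tolerance 1e-06), so edgeR 4.0.16 and DESeq2 1.42.0 were run on the recovered reads as alternatives.

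Genes with a mean of at least 10 normalized counts (6065 of 6600) entered 1 fit with limma 3.58.1 (R 4.3.3) on log2(value + 1), with 5 strain means, 5 residual degrees of freedom and a mean-variance trend. Log2 changes are on that scale. Calls are two-sided, at a Benjamini-Hochberg adjusted p under 0.05 over all genes tested, within each of 9 comparisons. The scripts were tested on simulated data. Labels call the 2 libraries of a strain biological replicates. Names and coordinates came from RefSeq R64, which matched 5917 identifiers. BLAST+ 2.17.0 found no near-identical copy of a member, and none overlaps another annotated gene.

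The members and lists were chosen with earlier results of these data known. Values per library are given for the largest and smallest change in each complex or part of ATP synthase and for the 2 members differing most between replicates. From each list up to 3 called genes were to be named. The isoform, HAP and NADH dehydrogenase genes are given whatever their values. INH1 was named after its values were seen, and the abundant genes that did not pass, which the rule also names, were left out.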

Additional observations from a re-analysis of the deposited data

How the results depend on the processing

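Each result was recomputed under up to 22 alternatives. With 1 library left out, the number of subunit genes called ranged from 11 to 25 against LAB, 14 to 29 against the mean of the MED15 strains, 7 to 20 against WY7, 11 to 24 against WY15 and 12 to 25 against WY23. Equal sums gave 32 against LAB, WY7 and WY15, and quantile normalization gave 32 against LAB, 29 against WY7 and 31 against WY15. A fit of only the groups compared gave 11 against WY15. The cause of these moves was not tested. No subunit gene was called between MED15 alleles under any alternative. Equal sums adds 0.36 to the median log2 change of all genes against LAB. Under it, the changes of CYC7, HAP5, COQ10 and the retrograde gene RTG2 turned positive, at 0.0857, 0.322, 0.0691 and 0.0461, as did those of list genes not named here. HAP5 ranged from -0.0995 to 0.0235 with 1 library left out, and was at 0.0235 without LAB replicate 1 and WY15 replicate 2 together, a pair chosen after seeing the data. COX9 against the average of the 4 MED15 strains ranged from -0.0175 to 0.0252 with 1 library left out.

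Replicate numbers did not pair the libraries: replicate differences of 10 pairs of strains correlated at -0.50 to 0.41, with 3 above 0.1. With the replicate block, 17 genes were called against LAB, 26 against the mean of the MED15 strains, 15 against WY7, 17 against WY15 and 22 against WY23.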
